A study of Homo sapiens with 7 samples.

Results

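A human gene can begin at more than 1 promoter, and the genes described here are those in which Start-seq called several transcription start sites (TSSs) on the same strand. Each of the 10391 called gene TSSs was placed in the gene locus of the RNA-seq table that held it, with the locus widened by 1000 nt on each side. This placed 5923 TSSs in a single locus, while 4370 that fell in several loci and 98 that fell in none were left out. Of the placed TSSs, 394 shared their locus and strand with at least 1 other, which is 3.79% of all called gene TSSs. They belonged to 191 of the 5720 loci with a placed TSS (3.34%). In 180 loci there were 2 TSSs, in 10 there were 3, and YWHAZ had 4. The TSSs of a gene were numbered along its strand, giving 191 first TSSs and 203 later ones. The other 5529 placed TSSs were the only call on their strand of a locus.

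The cells were T47D/A1-2, named T-47D in the sample labels, a line derived from the luminal breast cancer line T47D that overexpresses the rat glucocorticoid receptor and carries an integrated reporter driven by the MMTV promoter. Cells were kept under 1 growth condition, in 10% serum and then, for 24 hours or longer, in 5% charcoal-stripped serum. The Start-seq assay sequences short capped nascent RNA from the nucleus, so that the 5′ end of a read marks a TSS. All TSS calls came from Start-seq replicate 1, and the expression values are FPKM, fragments scaled to transcript length and to the number of mapped fragments, from 3 RNA-seq replicates merged into 1 value per gene. The confidence intervals and p-values below therefore cover the counting of genes and TSSs in 1 library and not the variation between cultures, and genes are not independent replicates. The score of every call was 0, so the number of reads behind a TSS is unknown. The luminal keratins KRT8 and KRT18 were at 1142 and 555 FPKM, GATA3 at 360 and ESR1 at 44.1, whereas the basal keratins KRT5 and KRT14 were listed at 0.

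Alternative promoters let 1 gene produce messages with different first exons. Where the second promoter lies beyond the start codon used from the first, the protein can lose or exchange its amino end. Where both lie before it, the difference can be limited to the 5′ leader, though the start codon can differ there too. Many mammalian promoters also start transcription on the opposite strand, either upstream, at an upstream antisense TSS (uaTSS), or within the gene, at a downstream antisense TSS (daTSS). A daTSS transcribes back towards the gene TSS. In a gene with several promoters, the antisense site of one promoter can lie between that promoter and the next.

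Promoters of vertebrates range from CpG-rich to CpG-poor, and the TSSs of a gene could differ in this. The following stretches are the 100 bases before the first and second TSS of 4 genes, read from GRCh37, which has the chromosome sequences of hg19, on the strand of the gene from 5′ to 3′ with each CG in capitals. They are shown because PKM and ANK3 have fewer CG before the second TSS, SET has more, and ESR1 has few before both.
PKM first TSS: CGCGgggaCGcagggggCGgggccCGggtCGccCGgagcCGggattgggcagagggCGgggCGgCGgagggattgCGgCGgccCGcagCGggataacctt
PKM second TSS: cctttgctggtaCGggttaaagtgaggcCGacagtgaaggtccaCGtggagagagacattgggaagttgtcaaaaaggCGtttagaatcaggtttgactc
ANK3 first TSS: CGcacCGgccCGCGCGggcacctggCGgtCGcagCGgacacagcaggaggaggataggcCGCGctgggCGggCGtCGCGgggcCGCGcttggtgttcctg
ANK3 second TSS: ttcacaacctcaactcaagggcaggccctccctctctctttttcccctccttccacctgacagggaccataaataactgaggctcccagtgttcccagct
SET first TSS: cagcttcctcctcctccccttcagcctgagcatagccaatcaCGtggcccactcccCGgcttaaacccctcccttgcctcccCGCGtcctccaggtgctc
SET second TSS: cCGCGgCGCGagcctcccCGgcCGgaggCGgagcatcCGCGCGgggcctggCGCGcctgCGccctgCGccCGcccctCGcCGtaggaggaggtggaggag
ESR1 first TSS: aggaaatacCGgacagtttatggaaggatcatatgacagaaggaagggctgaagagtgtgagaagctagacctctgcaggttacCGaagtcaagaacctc
ESR1 second TSS: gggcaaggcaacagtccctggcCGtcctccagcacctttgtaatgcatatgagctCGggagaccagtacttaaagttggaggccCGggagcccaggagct
The PKM stretches lie on the minus strand at chr15:72523554-72523653 and chr15:72521735-72521834. They hold 15 and 4 CG dinucleotides. The ANK3 stretches are on the minus strand at chr10:62493188-62493287, with 16 CG, and chr10:61900771-61900870, with 0. In SET, on the plus strand, the order was the other way round, with 4 CG at chr9:131446746-131446845 and 17 at chr9:131451428-131451527. ESR1, on the plus strand, had 2 at chr6:152011094-152011193 and 3 at chr6:152128721-152128820.

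A TATA box places the start of transcription a fixed short distance downstream, and is found at few human promoters. TATAA or TATAT, read on the gene strand and starting from -35 to -24, was present at 12 of the 394 TSSs (3.05%), against 3.0% of all gene TSSs. The following 3 were among the genes chosen for description, and are printed from -40 to the TSS with the match and the TSS base in capitals.
HN1 first TSS: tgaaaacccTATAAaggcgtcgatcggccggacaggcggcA
PALLD second TSS: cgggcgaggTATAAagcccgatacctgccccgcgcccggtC
FAM110A TSS 3: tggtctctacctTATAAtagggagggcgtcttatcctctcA
They lie at chr17:73150607-73150647 on the minus strand, chr4:169753206-169753246 on the plus strand and chr20:825242-825282 on the plus strand. The matches began at -31, -31 and -28.

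The first and second TSS of a gene were a median of 1920 nt apart (95% interval of the median 1487 to 2648 nt, n = 191 genes). The middle of the distribution was wide, with quartiles at 832 and 15938 nt. In 111 genes (58.1%) the spacing was under 3000 nt, and in 60 of these it was under 1000 nt. In the other 80 genes (41.9%) it was 3000 nt or more, and in 14 it was 100000 nt or more. The 3000-nt point is the sum of the 1000 nt upstream and 2000 nt downstream in which the authors searched for antisense TSSs, so that the search spaces of closer TSSs overlap. The authors' methods merged overlapping search windows of 2000 nt that carried the same gene name, which bears on which spacings could be called. A called TSS could lie anywhere in its window, and 100 of the pairs lay under 2000 nt apart. How these pairs arose was not tested.

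The closest pair belonged to DNAJA4, an HSP40 co-chaperone, with 221 nt between its TSSs. TRPS1, a GATA-type transcriptional repressor, followed with 222 nt. Next came MIB2, a ubiquitin ligase of Notch signalling, at 248 nt, DOHH, which completes hypusine synthesis on eIF5A, at 250 nt, and ATP6V1H, a subunit of the vacuolar proton pump, at 251 nt. At the other end, the TSSs of ANK3, which encodes the membrane adaptor ankyrin-G, lay 592417 nt apart on chromosome 10 (62493187 and 61900770). OXR1, involved in resistance to oxidative stress, had 387720 nt between its TSSs. The actin-bundling gene PALLD had 200485 nt, ARHGAP32 had 168220 nt and SPECC1 had 146681 nt. All 5 of these are long genes whose second TSS lay inside an intron of the transcript from the first.

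A uaTSS was called at 100 of the 191 first TSSs (52.4%, exact 95% interval 45.0% to 59.6%) and at 101 of the second TSSs (52.9%, 45.5% to 60.1%), against 53.1% of all gene TSSs. The difference, second minus first, was 0.524 percentage points (95% interval -9.64 to 10.7; exact two-sided McNemar test over genes, p = 1). The call was made at both TSSs in 51 genes, at the first only in 49, at the second only in 50 and at neither in 41. The second TSS had a uaTSS in 51.0% of genes whose first TSS had one (40.8% to 61.1%) and in 54.9% of those whose first had none (44.2% to 65.4%). The sign of the small difference varied with the way genes and pairs were chosen, and no choice gave a difference past the threshold of 0.05.

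Among the highly expressed members, PKM, the pyruvate kinase of glycolysis (533 FPKM), had a uaTSS 308 nt upstream of its first TSS and none at the second, 1819 nt on. LDHA, lactate dehydrogenase A (298 FPKM), likewise had a uaTSS only at the first TSS, at 156 nt, with the second TSS 1788 nt on. STIP1, the co-chaperone that joins HSP70 to HSP90 (215 FPKM), had one at 119 nt from the first TSS. KPNB1, the nuclear import receptor importin beta (127 FPKM), had one at 664 nt from the first. SET, a histone chaperone (134 FPKM), had one at 131 nt from the first. The opposite order, a uaTSS at the second TSS only, was found in TAGLN2, an actin-associated protein (549 FPKM, 577 nt), and in ERBB3, a receptor tyrosine kinase of the EGFR family (259 FPKM, 155 nt). FAM129B (157 FPKM, 304 nt), the glutamine transporter SLC1A5 (127 FPKM, 380 nt) and MFSD5 (97.7 FPKM, 117 nt) did the same.

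A uaTSS at both TSSs occurred in the tetraspanin CD63 (318 FPKM), whose TSSs lay 327 nt apart on chromosome 12. There the uaTSS of the first TSS was 121 nt upstream, and that of the second was 7 nt upstream, the shortest distance among the members. NME4, a mitochondrial nucleoside diphosphate kinase (228 FPKM), had uaTSSs at 483 and 320 nt. In HNRNPF, a splicing regulator (241 FPKM), all 3 TSSs had one, at 274, 214 and 260 nt. CORO1B, a coronin that binds actin filaments (317 FPKM), had neither antisense call at either of its TSSs, 316 nt apart.

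A daTSS was called at 39 first TSSs (20.4%, 14.9% to 26.8%) and at 59 second TSSs (30.9%, 24.4% to 38.0%), against 28.4% of all gene TSSs. The difference was 10.5 percentage points (1.57 to 19.2, exact two-sided McNemar test, unadjusted p = 0.0286). The call was at the second TSS only in 48 genes and at the first only in 28. The excess at the second TSS lay in the close pairs. There the authors' filter, described below, could remove daTSSs of first TSSs near the second TSS. The tests over all pairs and over close pairs therefore cannot tell a difference between the TSSs from the working of the filter. Under 3000 nt apart, 13 first and 38 second TSSs of 111 had a daTSS, a difference of 22.5 points (11.6 to 32.6; exact McNemar test, adjusted over 8 tests of bins and calls, p = 8.98e-04). Under 1000 nt, the counts were 1 and 22 of 60. At 3000 nt or more the order was the other way, with 26 first and 21 second TSSs of 80, a difference of -6.25 points (-20.4 to 8.18; exact McNemar test, p = 0.5). Whether the difference itself changed with spacing was not tested. Over all spacings the call was lost when daTSSs were counted up to 1000 nt only (5.76 points, exact McNemar test, p = 0.222). It was also lost when loci with identical coordinates were merged, which raised the number of pairs to 470 and can pair TSSs of different genes (5.11 points, p = 0.0757, exact McNemar test), although the 175 merged pairs under 3000 nt apart had a difference of 20 points (11.9 to 27.7; exact McNemar test, p = 3.31e-06).

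**Figure D1:**
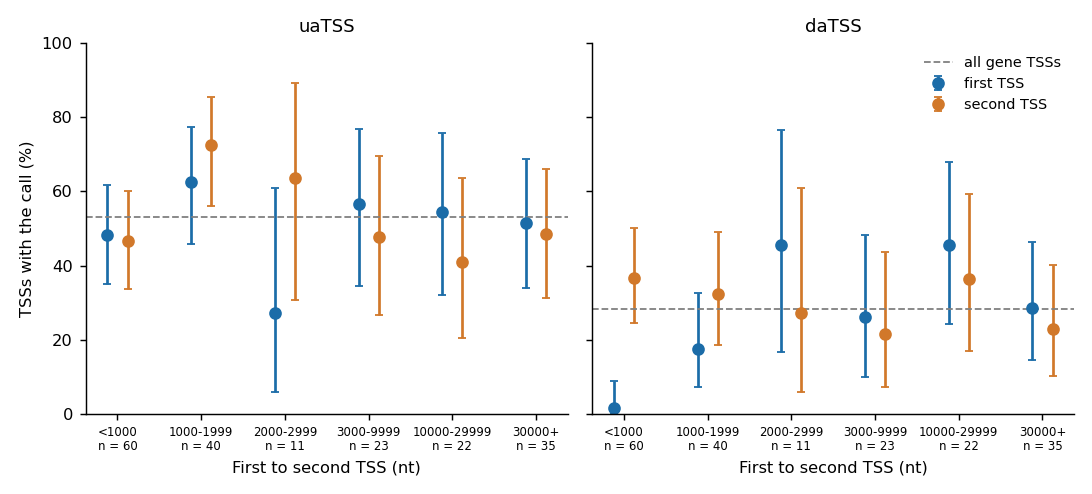
Percent of first (blue) and second (orange) TSSs with a uaTSS (left) or a daTSS (right) by the spacing of the pair in nt, with exact 95% intervals and the number of genes under each bin; the dashed lines are the 53.1% and 28.4% of all gene TSSs. The daTSS share of first TSSs is lowest under 1000 nt, at 1.67% against 36.7% of second TSSs, while the uaTSS intervals of first and second TSSs overlap in every bin.

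The way daTSSs were called bears on the close pairs. A daTSS was discarded by the authors if, within 1000 nt upstream of it on its own strand, a position on the gene strand had at least 10% of the reads of the gene TSS, or if an annotated TSS of its own strand lay within 1000 nt. For a daTSS of a first TSS, the upstream side is the side of the second TSS. In 12 of the 13 close pairs with a daTSS at the first TSS, the second TSS lay more than 1000 nt beyond that daTSS, the exception being RNPS1 at 160 nt. RNPS1 was named for being that exception. With no read counts, how many daTSSs of first TSSs the filter removed was not tested.

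A daTSS at the first TSS only was found in ALDOA, the glycolytic aldolase A (873 FPKM), 642 nt downstream of the TSS, and in TAGLN2, 285 nt downstream. TMEM9 (102 FPKM) had one at 239 nt, the RNA-editing enzyme ADAR (99.5 FPKM) at 587 nt and the nucleoside transporter SLC29A1 (56.3 FPKM) at 210 nt. In the first TSSs of ALDOA, TMEM9, ADAR and SLC29A1 a uaTSS was called as well. The first ALDOA TSS lay beside the start of another annotated gene, as given below, so the ALDOA pair may belong to more than 1 gene model. A daTSS at the second TSS only was found in BSG, which encodes the surface protein basigin (221 FPKM, 867 nt), and in HN1 (161 FPKM, 299 nt). It was also found in FAM129B (1678 nt), the DNA repair gene RAD23B (139 FPKM, 112 nt) and SET (1384 nt). Of these 5, HN1 and RAD23B had TSSs under 1000 nt apart, at 716 and 797 nt.

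Antisense TSSs between the first and the second TSS were counted. In 67 of the 111 pairs under 3000 nt apart (60.4%), at least 1 lay between them, and in 55 of the 80 distant pairs (68.8%). In distant pairs the search spaces allow no other place for a uaTSS of the second or a daTSS of the first TSS. The 68.8% is thus the share of distant pairs with either call. Over all gene TSSs, 53.1% had a uaTSS and 28.4% a daTSS, and no share expected for unrelated TSSs was computed. In the close pairs, all 64 uaTSSs of second TSSs lay between the pair, as did all 13 daTSSs of first TSSs. For the 36 of these uaTSSs in pairs 1000 nt or more apart, this too follows from the search space. Each antisense position in the lists belonged to a single gene TSS, so where search spaces overlap these counts also reflect which TSS a site was listed for. In 10 of the close pairs both kinds were present, and in none were they the same position, nor was any position listed as both a uaTSS and a daTSS among all calls. TAGLN2 was such a pair. Its first TSS had a daTSS at 285 nt, and its second TSS, 2568 nt on, had a uaTSS 577 nt upstream. Both sites are transcribed towards the first TSS.

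**Figure D2:**
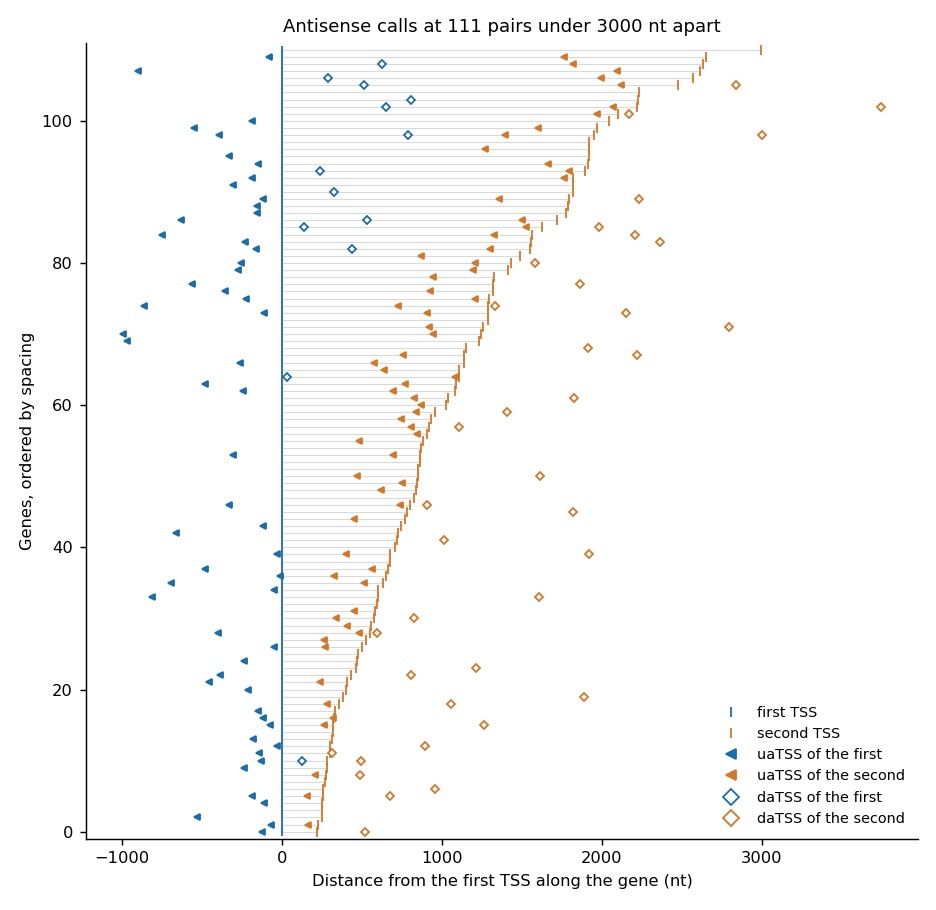
Each row is 1 of the 111 genes with TSSs under 3000 nt apart, ordered by spacing; the horizontal axis is the distance from the first TSS along the gene in nt, ticks are TSSs, triangles uaTSSs and open diamonds daTSSs, in blue for the first TSS and orange for the second. The 64 orange triangles all sit between the TSSs, and all but 1 of the 13 blue diamonds are in pairs over 1000 nt apart.

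The distances to the antisense TSSs had overlapping intervals at first and second TSSs. The median distance to the uaTSS was 226 nt at first TSSs (187 to 273 nt, n = 100) and 216 nt at second TSSs (183 to 288 nt, n = 101). The median distance to the daTSS was 587 nt at first TSSs (327 to 704 nt, n = 39) and 471 nt at second TSSs (353 to 700 nt, n = 59). A daTSS was called no farther than 1678 nt from any member. Over both calls together, 23 genes had no antisense call at either TSS. In 58 genes the first and second TSS had the same combination of calls. No number of genes expected for unrelated TSSs was computed, so neither count shows that the TSSs of a gene share their calls. The second TSS had a daTSS in 28.2% of genes whose first TSS had one (11 of 39). Where the first TSS had none, the share was 31.6% (48 of 152).

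The members had antisense calls at shares near those of all gene TSSs, and fewer than the TSSs that were alone in their locus. A uaTSS was called at 208 of the 394 members (52.8%, 47.7% to 57.8%), against 53.1% of all gene TSSs, and at 61.8% of the 5529 single TSSs, a difference of -8.99 percentage points (Newcombe 95% interval -14.1 to -3.95). A daTSS was called at 25.6% of the members (21.4% to 30.2%), an interval that includes the 28.4% of all gene TSSs, and at 35.7% of single TSSs, a difference of -10.1 points (-14.3 to -5.35). The daTSS difference from single TSSs was -15.3 points for first TSSs (-20.5 to -8.87). For later TSSs it was -5.14 points, with an interval that included 0 (-11.2 to 1.62). The authors' filter could remove daTSSs of first TSSs in close pairs, and its part in these differences was not tested. Among the 162 members at least 3000 nt from their nearest neighbour in the gene, the uaTSS difference was -11.2 points (-18.9 to -3.46). The daTSS difference was -6.67 points, with an interval that included 0 (-13.2 to 0.843). A divergent gene TSS, called on the opposite strand up to 1000 nt upstream, was present at 1198 of all gene TSSs (11.5%) and at 0 of the 394 members. Of those 1198 TSSs, 1184 fell in several loci and were left out by the placing of TSSs, and 4 were the only TSS of their locus.

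The CpG ratio, the observed number of CG dinucleotides over that expected from the C and G content of the 500 nt around the TSS, was set beside the calls. At members with a ratio above 0.6, 56.6% had a uaTSS (50.6% to 62.5%, n = 281), against 43.4% of the members at or below 0.6 (34.1% to 53.0%, n = 113). At single TSSs these shares were 64.7% (63.3% to 66.0%) and 39.6% (35.7% to 43.5%). Among CpG-rich TSSs the intervals of members and single TSSs did not overlap, and among CpG-poor ones they did. The daTSS shares of the members had overlapping intervals, 26.7% above 0.6 (21.6% to 32.3%) and 23.0% at or below it (15.6% to 31.9%). First and later TSSs went in opposite directions here. At first TSSs the daTSS share was 17.9% above 0.6 (12.1% to 25.2%) and 28.3% at or below (16.0% to 43.5%). At later TSSs it was 36.0% above (28.0% to 44.7%) and 19.4% at or below (10.8% to 30.9%). Single TSSs had 36.3% above (34.9% to 37.7%) and 31.0% at or below (27.4% to 34.8%). No test was run on these shares. A ratio above 0.6 was found at 281 of the 394 members and 4897 of the 5529 single TSSs.

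Over all 191 genes, none of 7 sequence measures differed between first and second TSSs past the threshold, the smallest adjusted p being 0.575 (exact sign or McNemar tests). The genes with distant TSSs did show a difference. In the 80 genes with a spacing of 3000 nt or more, the median CpG ratio was 0.810 at first TSSs and 0.553 at second TSSs. The median change within a gene was -0.161 (-0.298 to -0.0331; exact two-sided sign test adjusted over 7 measures, p = 0.00737), and the ratio was lower at the second TSS in 55 genes and higher in 25. GC content in the 100 nt around the TSS was 69.0% and 61.5% (median change -6.50 points, -12.0 to 0, adjusted p = 0.0226, exact sign test). In the 500-nt window it was 69.0% and 60.8% (-6.80 points, adjusted p = 0.0226, exact sign test).

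In the 111 close pairs the CpG ratio was 0.788 and 0.824, with a median change of 0.0369 (-0.0394 to 0.0920; exact sign test, adjusted p = 0.589). In pairs under 500 nt apart the windows overlap. Whether the change within a gene differed between close and distant pairs was not tested. With a ratio above 0.6 taken as CpG-rich, both TSSs were rich in 72 of the close pairs and in 28 of the distant pairs. In the distant pairs the first TSS alone was rich in 32 genes, the second alone in 11, and neither in 9. The close pairs had 13 genes with the first alone rich and 19 with the second alone.

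**Figure D3:**
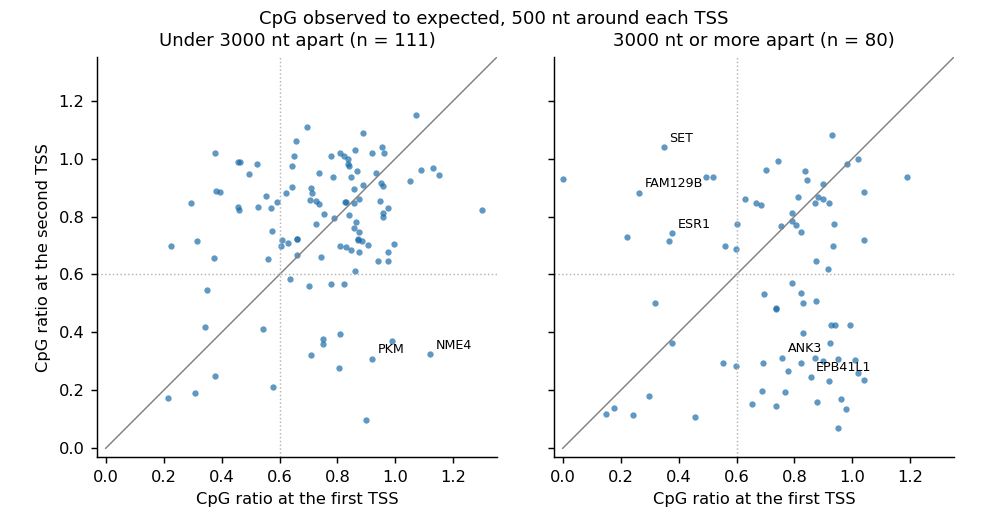
CpG observed to expected ratio in the 500 nt around the first TSS (horizontal) and the second TSS (vertical) of each gene, for pairs under 3000 nt apart (left) and farther apart (right); the diagonal marks equal ratios and dotted lines mark 0.6. On the right, 32 genes fall in the lower right, where only the first TSS is CpG-rich, and 11 in the upper left.

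ANK3 had a CpG ratio of 0.758 at its first TSS and 0.312 at its second. EPB41L1, a protein 4.1 family member of the membrane skeleton, went from 0.856 to 0.247 over 61774 nt. RGS3, a regulator of G protein signalling, had 0.737, 0.486 and 0.382 at its 3 TSSs. In SET and FAM129B the ratio rose along the gene, from 0.349 to 1.04 and from 0.263 to 0.882. ESR1 also had the higher ratio at the second TSS, 0.742 against 0.379. Among the close pairs, PKM had 0.919 and 0.309, and NME4 had 1.12 and 0.324. These genes show both directions, and the count of 55 against 25 describes the distant pairs as a whole.

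Short elements did not differ past the threshold. GGGCGG on either strand within 50 nt upstream, the letters of the GC box bound by SP1, was present at 27.4% of the members and 27.4% of all gene TSSs. In the distant pairs it was found at 28 first and 15 second TSSs of 80 (exact McNemar test, p = 0.0351, adjusted p = 0.0614). The core of the initiator, with a pyrimidine at -1 and then a purine at the TSS, was present at 65.5% of the members and 66.1% of all gene TSSs. CANA or CANT from -1, a fuller initiator that overlaps this core, was present at 19.3% and 18.8%. TATAA or TATAT was found at 4 first and 7 second TSSs of the 191 genes, and in no gene at both.

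The called positions were set against the GENCODE annotation. The authors called gene TSSs only in search windows about RefSeq starts, so calls lie near annotated starts largely by construction. The share within 1000 nt is therefore no independent check of the calls. An annotated start of the gene lay within 1000 nt on the strand for 391 of the 394 members (99.2%), and within 100 nt for 68.8%, against 82.2% of single TSSs. The 3 exceptions were the first TSSs of ALDOA, SULT1A1 and SUN1. The first ALDOA TSS lay at -11014 nt relative to the nearest annotated ALDOA start and at -1 nt relative to the start of another annotated gene, ENSG00000285043, so the pair may belong to more than 1 gene model. The same holds for SULT1A1, whose first TSS lay at -9339 nt relative to the nearest SULT1A1 start and 7 nt from the start of ENSG00000289755. The position of the second TSS within the transcript that starts at the first could be read in 186 genes. It lay in intron 1 in 108, in another intron in 48, in exon 1 in 19, in another exon in 9 and outside in 2.

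In 174 genes a different coding transcript could be assigned to each TSS. The start codons differed in 108 of them (62.1%, 54.4% to 69.3%) and were the same in 66. In 11 further genes, all with TSSs under 3000 nt apart, both TSSs were assigned the same transcript and so the same start codon. These 11 are not in the shares given here, which would be lower with them, and 6 genes could not be assessed. Where they differed, the start codon of the second transcript lay farther along the gene in 81 and before that of the first in 27. Among distant pairs 51 of 75 differed (68.0%, 56.2% to 78.3%), and among close pairs 57 of 99 (57.6%, 47.2% to 67.5%). These counts rest on the nearest annotated transcript, which can be a partial model, and no read joins a called TSS to a start codon here.

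PIK3R1, which encodes regulatory subunits of PI3 kinase, had 3 TSSs, and the transcripts nearest to the first and second encode 732 and 424 codons. In PALLD the transcripts nearest to the first and second TSS have 777 and 469 codons, and in ANK3 1861 and 1001. In PKM, NR3C1, SRC, ADAR, HNRNPF and ESR1 the first and second TSS shared the start codon, so that the annotated difference is in the 5′ leader. ESR1 transcripts from both TSSs encode 595 codons and those of SRC 536.

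Genes with several TSSs had a higher median FPKM than genes with 1. The median was 26.5 FPKM in the 191 loci with several TSSs (95% interval of the median 22.1 to 33.5) and 15.4 in the 5529 loci with 1 (14.8 to 16.2). The share at 1 FPKM or more was 99.0% and 93.7%. The loci with several TSSs were also longer, with medians of 46483 and 28715 nt, and the part of length in the FPKM difference was not tested. Close and distant pairs had nearly equal medians, 26.5 FPKM (18.5 to 37.8) and 26.4 FPKM (21.0 to 33.5). FPKM is 1 value per gene and cannot be divided among its TSSs.

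Some members were on gene lists drawn up for description. Of 60 genes listed as possible cases of alternative promoters, 22 had a placed TSS. Of these, 4 (18.2%) had several, namely ESR1, NR3C1, PKM and SRC, against 3.34% of all loci with a placed TSS. No source was given for each gene of this list, so an entry does not establish that its alternative promoters were already known. Of 25 luminal factors and cofactors, 18 had a placed TSS and 1, ESR1, had several (5.56%). Of 30 genes of the actin and membrane cytoskeleton, 11 were placed and 2, ANK3 and EPB41L1, had several (18.2%). With such small lists the shares rest on 1 to 4 genes. The lists were also chosen with earlier results of these data known, so the shares are descriptive only.

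ESR1, the estrogen receptor alpha that marks luminal tumors (44.1 FPKM), had its first TSS at position 152011194 of chromosome 6 and its second at 152128821, 117627 nt on and 4 nt from an annotated start. The first TSS had a uaTSS at 380 nt and a daTSS at 1236 nt, whereas the second had neither. GC content in the 500 nt around the TSS was 35.6% at the first and 63.2% at the second. Both antisense calls of ESR1 were thus at the TSS with the lower GC content. NR3C1, the human glucocorticoid receptor gene (5.43 FPKM), had TSSs at 142784892 and 142783076 of chromosome 5, 1816 nt apart on the minus strand, with a daTSS at 327 nt from the first and no other antisense call. The cells also express a rat glucocorticoid receptor, and its part in the FPKM of the human gene was not tested.

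SRC, a tyrosine kinase (16.5 FPKM), had TSSs 464 nt apart on chromosome 20 at 35974079 and 35974543, with a daTSS 750 nt downstream of the second. Its GC content rose from 59.4% to 78.6% in partly overlapping windows. ARHGAP32 (21.0 FPKM) had CpG-poor sequence at both TSSs, with ratios of 0.151 and 0.118, and a uaTSS only at the second, at 68 nt. ANK3 (24.9 FPKM) and EPB41L1 (27.3 FPKM) each had a daTSS at the second TSS, at 1045 and 353 nt, and no other antisense call.

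The genes with 3 or more TSSs had individual patterns. YWHAZ, which encodes a 14-3-3 adaptor protein (255 FPKM), had 4 TSSs on the minus strand of chromosome 8, at 101965609, 101965111, 101964213 and 101962783. The first 3 had uaTSSs at 53, 228 and 194 nt, and the fourth had only a daTSS, at 248 nt. In HNRNPF the third TSS, at 43892709 on chromosome 10, was also the only one with a daTSS, at 1000 nt. KANK1, a regulator of actin assembly (6.80 FPKM), had a uaTSS at all 3 TSSs, at 193, 359 and 92 nt. DNAJA4 (30.3 FPKM) had a uaTSS at the first, a daTSS at the second and a uaTSS at the third TSS, and FAM110A (48.6 FPKM) had the same order. C14orf80 (20.9 FPKM) had a daTSS, a uaTSS and a daTSS.

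In MYADM (29.8 FPKM) the first TSS had no antisense call and the second and the third had uaTSSs at 651 and 483 nt. PDE4A, a cAMP phosphodiesterase (2.93 FPKM), had a single antisense call, a uaTSS 967 nt from its second TSS. PIK3R1 (32.0 FPKM) also had a single one, a daTSS 231 nt from its first TSS. Its GC content in 500 nt was 68.4%, 63.8% and 37.6% at the 3 TSSs. RGS3 (28.4 FPKM) had uaTSSs at 194 and 580 nt from its first and second TSSs and none at the third. Of the 12 TSSs beyond the second in these 11 loci, 7 had a uaTSS (58.3%, 27.7% to 84.8%) and 3 had a daTSS (25%, 5.49% to 57.2%). Intervals this wide do not separate them from first or second TSSs.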

How the data were processed

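Positions of TSSs and gene expression in T47D/A1-2 cells were analysed. The authors trimmed Start-seq reads with cutadapt 1.2.1, aligned them to hg19 with Bowtie 0.12.8 and called gene TSSs near RefSeq starts, then uaTSSs within 1000 nt upstream and daTSSs within 2000 nt downstream on the opposite strand. The deposited calls are 3 lists of single positions with a score of 0 throughout. The deposited FPKM values were made by the authors with TopHat2 2.0.4, Picard 1.118 and Cufflinks 2.2.1 from merged replicates, so depth is unknown for both assays. The second Start-seq replicate and the nucleosome (MNase-seq) and open-chromatin (FAIRE-seq) libraries were not used here.

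Calls were joined by their shared identifier. Loci with identical coordinates counted as several loci, so a TSS inside them was left out. Shares have exact Clopper-Pearson intervals at 95%. First and second TSSs were compared by exact McNemar and sign tests. The Benjamini-Hochberg adjustment covered the 7 sequence measures within each set of pairs, not across sets, and the 8 tests of calls by spacing bin. The other tests of calls were not adjusted. Differences of shares between first and second TSSs have Agresti-Min intervals, and those between members and single TSSs have Newcombe intervals. The tests were checked on simulated data. Annotation was GENCODE lifted to GRCh37, with older symbols matched through RefSeq synonyms for all 394 members. Python 3.11.15, numpy 2.4.6, pandas 2.3.3, scipy 1.17.1, pysam 0.24.0 and matplotlib 3.10.9 were used.

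The members, lists and tests were chosen with earlier results of these data known. Named genes were those with the most TSSs, the highest FPKM, the closest and widest spacings, the highest FPKM in each class of differing calls, and list members, skipping (except for lists) loci whose second TSS had no annotated start. The result of 1 gene list is not reported here. Alternatives were other locus widths, merged identical loci, annotated pairs only, last in place of second TSSs, loci with exactly 2 TSSs, spacing limits, a minimum FPKM of 1, a shorter daTSS window, a locus length minimum and leaving out divergent TSSs. Added after the data were seen were the close pairs, merged loci split by spacing, distant members against single TSSs, and a 100-nt limit to transcript starts.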

Additional observations from a re-analysis of the deposited data

How the results depend on the processing

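The uaTSS difference between second and first TSSs stayed short of the threshold under every alternative and changed sign under several. It was -3.72 points with loci not widened and -2.87 with loci widened by 5000 nt. With loci of identical coordinates merged it was -0.638, for first against last TSSs -0.524, and for genes with exactly 2 TSSs -0.556. It was -7.50 points at a spacing of at least 3000 nt, -7.02 at 10000 nt or more, and -2.37 in merged loci at 3000 nt or more. The daTSS difference missed the threshold with merged loci (5.11 points, exact McNemar p = 0.0757) and with daTSSs counted up to 1000 nt only (5.76 points, exact McNemar p = 0.222). Its sign changed to -6.25 points at a spacing of at least 3000 nt, -7.02 at 10000 nt or more and -3.73 in merged loci at 3000 nt or more. The difference of members from single TSSs in daTSSs had an interval including 0 for members 3000 nt or more from the neighbour (-6.67 points).

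In close pairs the median changes reversed for GC content (2 points in 100 nt, 1.40 in 500 nt) and the CpG ratio (0.0369), as did the differences for TATAA or TATAT (-0.901 points) and GGGCGG (7.21 points), and none of these passed the threshold. In distant pairs GC content (-6.50 points in 100 nt, -6.80 in 500 nt) and the CpG ratio (-0.161) passed it, and the pyrimidine then purine difference reversed to -6.25 points, short of it. The cause of these changes was not tested. Leaving out divergent TSSs removed no pair. No paired analysis was possible because the TSS calls come from 1 Start-seq library and the FPKM values from merged replicates, so replicate numbers could not be used as a block and no replicate could be left out. The pairs compared in the tests are TSSs of the same gene. The unknown depth limits each missing call: a TSS without an antisense call may have fallen short of the authors' read threshold.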
